A study of Triticum aestivum with 15 samples.

Results

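The genes described here are 56 high-confidence genes of bread wheat whose read share was low in the first leaf, higher in the third leaf after 7 days without iron, and higher again in the upper leaves after 11 days without iron. They are 56 of 269207 gene models listed, of which 107836 are high-confidence, and the rest carry the suffix LC for low confidence. Levels are in CPM, the count of a gene times 1e6 over the sum of all counts in the library, averaged over 3 plants. A member had a day 7 mean of at least 2 CPM and at least 4 times both first-leaf means, and a day 11 mean of at least 20 CPM and at least 3 times the day 7 mean. Members were chosen by their mean leaf levels, so their order from day 0 to day 11 is a description and was not tested.

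All plants were wild type (WT) cv. Fielder, grown in hydroponic solution with 50 µM NaFe3+EDTA for 12 days and then with 0 µM for up to 11 days. The 15 libraries form 5 groups of 3: the first leaf, taken on day 0 before iron was withheld and again on day 1; the third leaf of day 7 plants; the third, the fourth and the fifth leaves of day 11 plants; and the roots of day 11. The study's design text names 3 plants by the numbers that the libraries carry, with 1 library of each number per group, so p-values measure the spread between these 3. No iron-replete library of day 7 or day 11 enters, and leaf position and plant age differ along with the days without iron, so these cannot be told apart. In bulk tissue a higher level can come from more cells of a type or from more RNA per cell, and these cannot be told apart either.

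Iron is needed for chlorophyll synthesis and for the electron carriers of photosynthesis and respiration, and plants short of iron turn pale between the veins of their youngest leaves first, because iron moves poorly out of older leaves. Grasses take up ferric iron by secreting phytosiderophores, organic acids made from nicotianamine that bind ferric iron in the soil solution, and by importing the complex into root cells. Nicotianamine and related chelators also carry iron within the plant, so genes of this system can be active in roots and in leaves. The gene identifiers matched 0 of the 155467 genes of the RefSeq table used here (assembly IWGSC CS RefSeq v2.1), so no member is given a name, a role or a sequence, and the labelled tissues were not checked against marker genes. An identifier still gives the chromosome, its subgenome (A, B or D) and the order of genes along it.

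Library totals ran from 15434838 to 25552816 counts. The summed level of the 56 members was 71.3 ± 16.7 CPM on day 0, 60.4 ± 5.79 on day 1, 954 ± 64.4 on day 7, 6666 ± 1058 on day 11 and 4907 ± 115 in roots (SD, n = 3 each). These sums put the members at 0.00520 to 0.00814% of all counts in the first leaves, 0.0909 to 0.103% on day 7 and 0.548 to 0.752% on day 11. In roots, which played no part in choosing them, they took 0.481 to 0.504% of the counts. A few genes weigh heavily in the root sum, with root means of 1060 CPM for TraesCS3D02G467600 and 496 for TraesCS5D02G504200. The median root mean of the members was 30.8 CPM. On day 11 the lowest sum was that of plant 3.

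**Figure D1:**
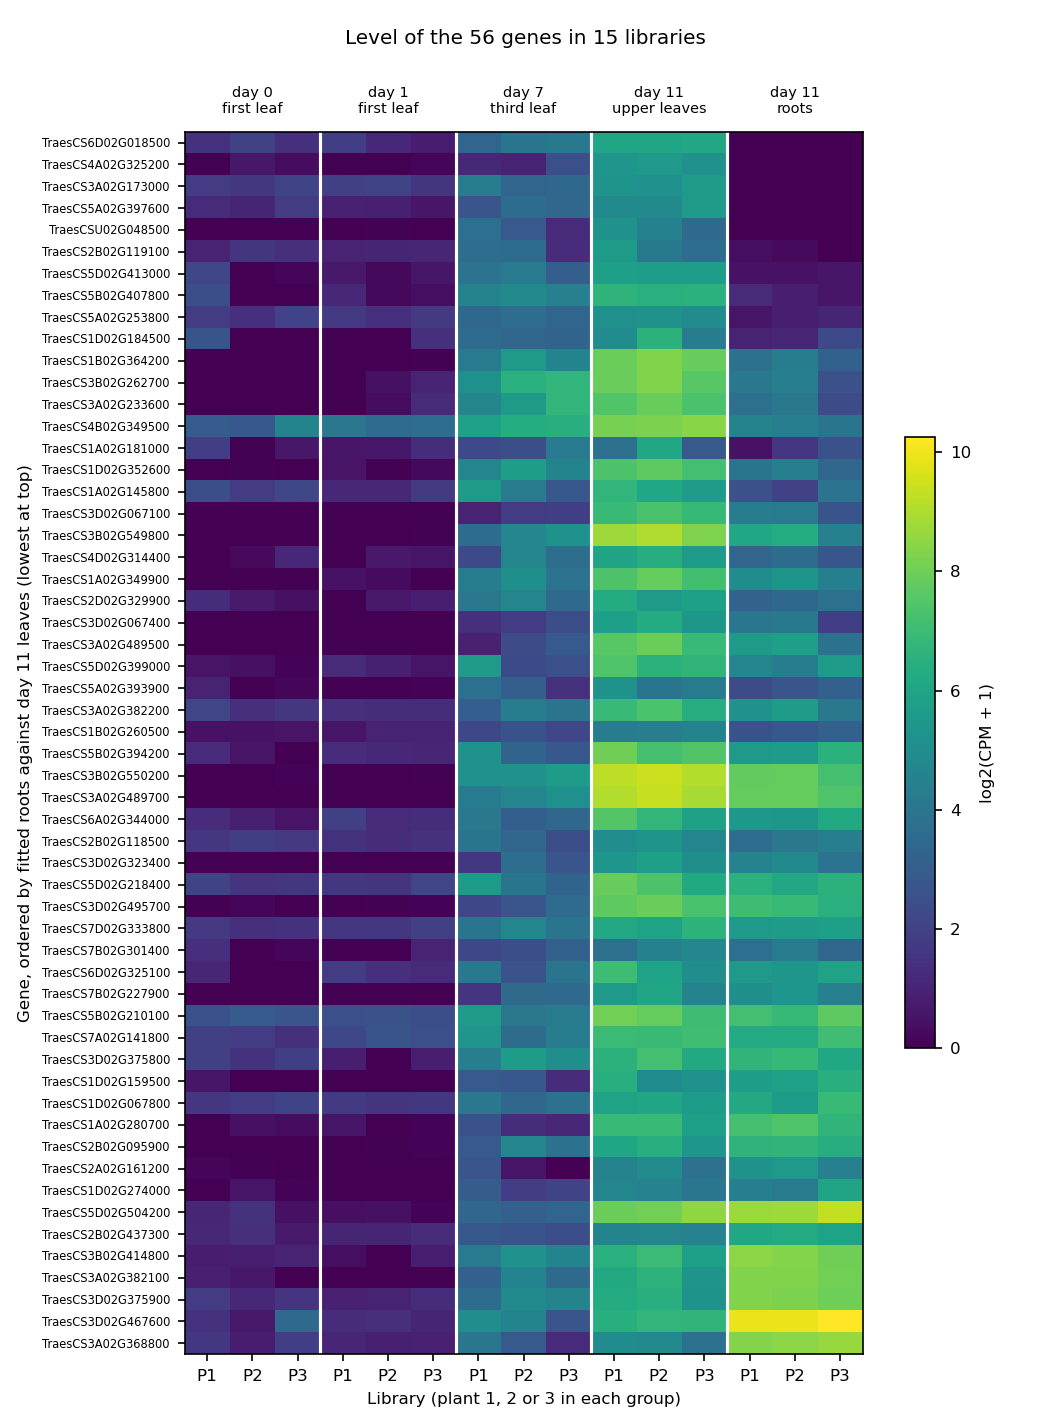
Level of each of the 56 members (1 line per gene, ordered by the fitted difference of roots and day 11 leaves) in each of the 15 libraries (columns, by group and plant), as colour on a scale of log2(CPM + 1). The first-leaf columns are dark for nearly all genes, the day 7 columns are intermediate, the day 11 columns are the brightest of the leaves, and the root columns range from 0 to 1213 CPM.

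Day 7 means spread from 2.02 to 77.1 CPM with a median of 12.9, and day 11 means from 20.0 to 604 CPM with a median of 72.3. By the day 11 mean, 18 members lay between 20 and 50 CPM, 17 between 50 and 100, and the others above that. The first step, day 7 over the higher first-leaf mean, had a median of 12.8-fold, and the second step, day 11 over day 7, had a median of 4.94-fold. By these values the first step was the larger one in 46 members and the second in 9; TraesCS3D02G067100 is undecided, since its first step is only a lower bound. In the first leaves 13 members had 0 counts on day 0, 10 had 0 on day 1 and 6 had 0 in both groups; their first step took 3 counts in the whole group as its floor (0.0548 CPM on day 0 and 0.0452 on day 1) and is a lower bound.

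Genes near each limit of the rule had like values on either side. The day 7 mean nearest the minimum was 2.02 CPM for TraesCS2A02G161200, a member, and 1.67 CPM for TraesCS3D02G495400, which met every other step. Against day 0, TraesCS2B02G118500 was inside at 4.01 times and TraesCS2D02G185400 outside at 3.93 times; against day 1, TraesCS2B02G437300 was inside at 4.42 times and TraesCS3A02G113900 outside at 3.96 times. For the day 11 minimum the neighbours were TraesCS7B02G301400 at 20.0 CPM and TraesCS3D02G332200 at 19.7 CPM, and for the last step TraesCS3D02G375800 at 3.07 times and TraesCS2D02G173300 at 2.99 times. The last step removed the most genes, since 587 high-confidence genes met all the earlier limits and the day 11 minimum but not the 3-fold second step; these are called the sustained genes. A further 152 genes, called the late genes, did not meet the first step but reached at least 20 CPM and at least 12 times both first-leaf means on day 11. The choice depends on the scaling, since 34 of the 56 met every limit with TMM factors in place of column sums, while all 56 still stood higher at each step.

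All 3 day 7 libraries lay above all 6 first-leaf libraries in 52 of the 56 members, and this holds for 22.9% of the 62841 genes tested in leaves. All 3 day 11 libraries lay above all 3 day 7 libraries in 53 members, against 33.3% of genes, and both held in 50, against 8.96%; the rule used these libraries, so nothing is read from the counts. The 6 members with some overlap were TraesCS1A02G181000, TraesCS2A02G161200, TraesCS2B02G119100, TraesCS3A02G368800, TraesCS3D02G467600 and TraesCSU02G048500. Both fold limits were met within every single plant by 23 members. The levels of 1 plant can be set against a choice made without it. When plant 1 was left out of the choice, 48 genes were chosen, of which 46 (95.8%) stood higher at both steps in plant 1 and 21 (43.8%) met every limit there, against 28.7% and 0.152% of high-confidence genes tested. Without plant 2, 60 genes were chosen, of which 56 (93.3%) stood higher at both steps and 29 (48.3%) met every limit in plant 2, against 27.7% and 0.132%. Without plant 3, 56 genes were chosen, of which 52 (92.9%) stood higher at both steps and 25 (44.6%) met every limit in plant 3, against 36.3% and 0.243%. In each case nearly all chosen genes stood higher at both steps in the plant left out, and 21 to 29 met every limit there, the minimum levels included. The rule itself was set with all 3 plants known, and 35 to 44 of the chosen genes were members. The percentages beside them are over all high-confidence genes tested, not over genes of like level. These counts are therefore a description and no independent test.

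CPM is not divided by gene length, so the order of members by CPM is an order of read share. The highest day 11 level belonged to TraesCS3B02G550200, with 595, 679 and 537 CPM in plants 1, 2 and 3 on day 11, 35.7, 36.8 and 48.7 on day 7, and at most 0.0648 CPM in any first leaf. Next came TraesCS3A02G489700, with 538, 647 and 477 CPM on day 11, 17.3, 24.2 and 34.3 on day 7 and 0 counts in all 6 first-leaf libraries. TraesCS3B02G549800 had 431, 516 and 303 CPM on day 11 and 11.3, 26.0 and 36.2 on day 7. In these 3 genes no day 7 library came near a day 11 library, plant 1 was the lowest on day 7, and plant 2 was the highest on day 11.

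TraesCS4B02G349500 had the highest first-leaf level of the members, with 6.75, 6.13 and 23.3 CPM on day 0 and 15.9, 10.8 and 11.8 on day 1, and it went to 58.0, 80.5 and 86.2 on day 7 and 282, 302 and 341 on day 11. TraesCS5D02G504200 stood at 9.51, 7.86 and 9.18 CPM on day 7, with little spread, and at 246, 268 and 368 on day 11, where plant 3 was the highest. TraesCS1B02G364200 was detected in 1 of 6 first-leaf libraries and had 18.3, 45.3 and 23.5 CPM on day 7 and 246, 318 and 230.1 on day 11. Plant 2 led TraesCS1B02G364200 at both times. TraesCS3B02G262700 had 34.2, 89.4 and 108 CPM on day 7 and 241, 319 and 193 on day 11, so plant 3 was the highest of the day 7 leaves and the lowest of the day 11 leaves. TraesCS5B02G210100 had 47.2, 15.9 and 18.4 CPM on day 7 and 266, 229 and 132 on day 11, with plant 1 the highest at both times. The groups did not overlap in any of these 8 genes of highest day 11 level.

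The largest first steps rested on first-leaf levels of 0 to 3 counts, so they are wide or bounds. As ratios of means they were 2077.5-fold for TraesCS1B02G364200, 1870-fold for TraesCS3B02G550200 and 1752-fold for TraesCS3B02G549800. They were 450-fold for TraesCSU02G048500 and 351-fold for TraesCS2B02G095900. The ratios printed below with an interval instead use counts and library totals summed over the plants, so their sizes and order differ. TraesCS1B02G364200 had 1 count in the first-leaf group it was compared with, and its ratio was 1886-fold (95% interval 338 to 74552, exact binomial, counting error only). For TraesCS3B02G550200 the ratio was 2208-fold (95% interval 396 to 87247, exact binomial, counting error only), and for TraesCS3B02G549800 it was 1604-fold (95% interval 287 to 63393, exact binomial, counting error only). TraesCS3A02G489700 was at least 461-fold higher on day 7 than in the first leaf. TraesCSU02G048500 had a ratio of 454-fold (95% interval 81.0 to 17958, exact binomial, counting error only), and TraesCS2B02G095900 of 323-fold (95% interval 110.2 to 1569, exact binomial, counting error only). These 6 genes share near-absence in the first leaf, whereas the 43 members with more than 3 first-leaf counts in the group compared had steps from 4.01-fold up to 165-fold.

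The largest second step was that of TraesCS3D02G067100, with 0.985, 2.46 and 2.74 CPM on day 7 and 124, 157 and 115 on day 11, a ratio of 63.9. TraesCS3A02G489500 had 0.900, 4.08 and 6.44 CPM on day 7 and 188, 243 and 121 on day 11, a ratio of 48.4. TraesCS1A02G280700 had 4.93, 1.52 and 1.23 CPM on day 7 and 123, 122 and 54.4 on day 11, a ratio of 39.0. In all 3 genes the day 7 level was low in every plant, and the day 11 level was at least 54.4 CPM in every plant. The ratios of TraesCS5D02G504200, TraesCS3D02G495700 and TraesCS3A02G489700 were 33.2, 29.9 and 21.9. TraesCS3D02G495700 had 3.60, 5.55 and 11.0 CPM on day 7 and 208, 237 and 159 on day 11. Of these 6 genes with the largest second steps, 4 lay on chromosomes of homoeologous group 3, beside 18 of all 56 members (32.1%). Among them TraesCS3A02G489500 and TraesCS3A02G489700 are close neighbours. The sizes of the log2 steps had a Pearson r of 0.32 across the 56 members, with 6 first steps entered at their lower bounds. It was -0.01 across the 43 with more than 3 first-leaf counts. The first step is a multiple that the day 7 mean raises and the second is one that it lowers, and the rule limits both. These values describe genes that share the day 7 libraries, and nothing is read from their size or sign.

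**Figure D2:**
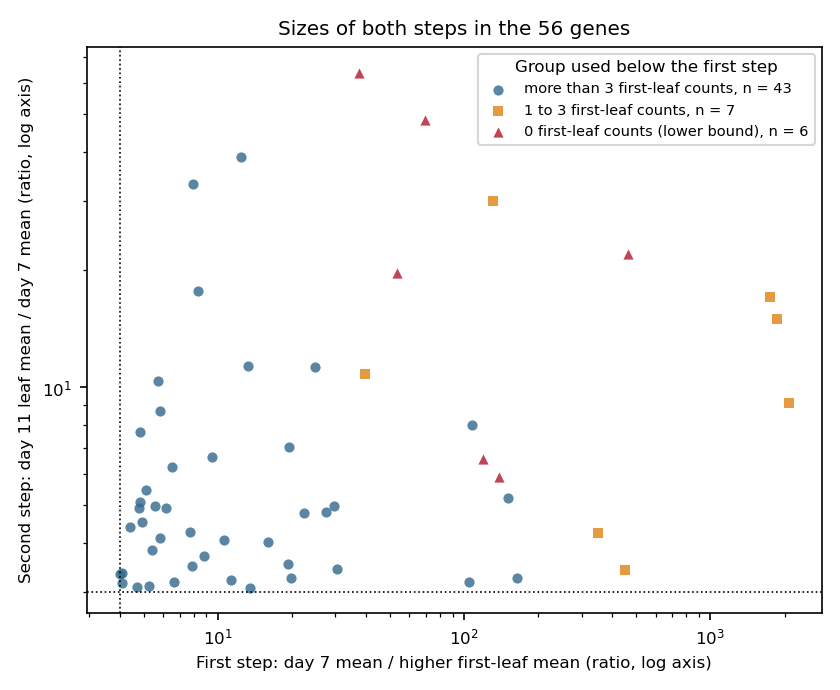
First step (day 7 mean over the higher first-leaf mean, x axis) against second step (day 11 mean over day 7 mean, y axis) for the 56 members, both on log scales of fold. Dotted lines mark the limits of 4 and 3, symbols mark how many first-leaf counts stand under the first step, and the 3 members farthest to the right all rest on 1 to 3 counts.

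The plants spread more on day 7 than on day 11. The highest plant was a median of 2.78 times the lowest on day 7 and 1.70 times on day 11. This is not particular to the members. Over all genes, chi-square per degree of freedom between 2 libraries was 20.6 to 67.1 on day 7 and 7.90 to 11.6 in day 11 leaves. The widest spread on day 11 was that of TraesCS1A02G181000, with 12.7, 70.6 and 6.19 CPM on day 11 and 3.81, 4.57 and 17.2 on day 7. Its groups overlapped, and plant 2 alone carried its day 11 mean, so its second step rests on 1 library. TraesCS2A02G161200 had 5.57, 0.492 and 0 CPM on day 7, where plant 1 alone carried the mean, and 22.9, 29.5 and 13.4 on day 11. TraesCS2B02G119100 had 11.6, 11.3 and 1.46 CPM on day 7, with plant 3 within the range of the first leaves, and 46.4, 16.8 and 12.2 on day 11. TraesCSU02G048500 had 12.4, 6.34 and 1.37 CPM on day 7 and 36.5, 21.5 and 10.6 on day 11, both highest in plant 1 and lowest in plant 3. In this gene the plants kept their order from day 7 to day 11. TraesCS3D02G467600 had 1.76, 0.618 and 10.3 CPM on day 0 and 31.5, 23.5 and 5.48 on day 7, so its day 7 leaf of plant 3 lay under its day 0 leaf of plant 3. TraesCS3A02G368800 had 15.1, 6.49 and 1.32 CPM on day 7 and 30.7, 28.8 and 13.1 on day 11, lowest in plant 3 at both times. In each of these 6 genes at least 1 plant lay far under the highest plant of its group.

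Whether the first day without iron moved the members was tested between the first leaves of day 1 and day 0 with edgeR's quasi-likelihood test on 12 leaf libraries, Benjamini-Hochberg adjusted over 62841 genes. The test called 0 members higher and 0 lower of the 50 with any count in these groups (the other 6 could not be called), while it called 0.759% of genes higher and 0.535% lower. The rule held both levels low and the members passed the filter on low counts through the later leaves, so nothing is read from this count. An unadjusted p under 0.05 was found for 12 members and for 11615 of all 62841 genes. The median log2 difference was -0.14 over the members, where the 6 that could not be called entered at 0, and -0.01 over all genes tested. The member with the lowest adjusted p was TraesCS5D02G504200, with 1.16, 1.80 and 0.389 CPM on day 0 and 0.347, 0.357 and 0.0838 on day 1, a log2 difference of -2.02 ± 0.54 (SE; adjusted p = 0.0931, edgeR, n = 3). TraesCS1B02G260500 had 0.403, 0.412 and 0.454 CPM on day 0 and 0.496, 0.981 and 1.05 on day 1, a log2 difference of 1.09 ± 0.30 (SE; adjusted p = 0.0971, edgeR, n = 3). The day 0 and day 1 values of TraesCS5D02G504200 did not overlap, nor did those of TraesCS1B02G260500, and both calls missed the threshold of 0.05. The median level of the members on day 0 was 0.603 CPM, so for many of them this test rests on few counts. DESeq2 on the same counts called 3 members higher and 4 lower, with a lowest adjusted p of 0.0019, and over all genes it called 2087 higher and 2489 lower, against 477 and 336 by edgeR; TraesCS3A02G233600, TraesCS3B02G262700 and TraesCS1A02G349900 were the higher ones, and all 3 had 0 counts in every day 0 library. The 4 lower ones were TraesCS5D02G504200, TraesCS3A02G382100, TraesCS3D02G375800 and TraesCS1D02G274000.

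In roots on day 11, which the rule did not use, the members ranged from 5 members with 0 counts in every root library to 1059.9 CPM. The root median was 30.8 CPM (quartiles 8.37 and 87.6), and 47 members (83.9%) reached 1 CPM and 31 (55.4%) reached 20 CPM. Of all high-confidence genes with at least 20 CPM in day 11 leaves, 88.9% and 60.6% reached these levels in roots. The shares were 76.3% and 18.5% of all high-confidence genes tested, 68.7% and 27.9% of the sustained genes, and 82.9% and 58.6% of the late genes. The sustained genes had a root median of 4.76 CPM, the late genes 39.0, all high-confidence genes with at least 20 CPM in day 11 leaves 26.4, and all high-confidence genes tested 4.78. These medians are descriptions, since no test between sets was run. Roots and day 11 leaves were compared with edgeR's quasi-likelihood test on those 6 libraries over 67922 genes. It called 7 members higher in roots and 37 lower, while 12 passed in neither direction. It called 35.7% of genes higher and 32.7% lower, low-confidence models included. Of the high-confidence genes tested, 29.5% were called higher and 39.1% lower. The members entered through a day 11 leaf level of at least 20 CPM, which tilts this count toward the leaf, and among all genes with that leaf level 20.2% were called higher in roots and 58.5% lower. Of the sustained genes 6.3% were called higher and 85.7% lower, and of the late genes 33.6% and 54.6%, beside 12.5% and 66.1% of the members. The median log2 difference, roots minus leaves, was -1.79 over the members, also with the 5 members without root counts at their bounds, and 0.05 over all genes tested. Over the high-confidence genes tested it was -0.13. It was -0.52 over genes with at least 20 CPM in day 11 leaves, -3.20 over the sustained genes and -1.22 over the late genes. Root and leaf libraries did not overlap in 7 members that lay above (42.6% of genes) and in 35 that lay below (32.9%).

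**Figure D3:**
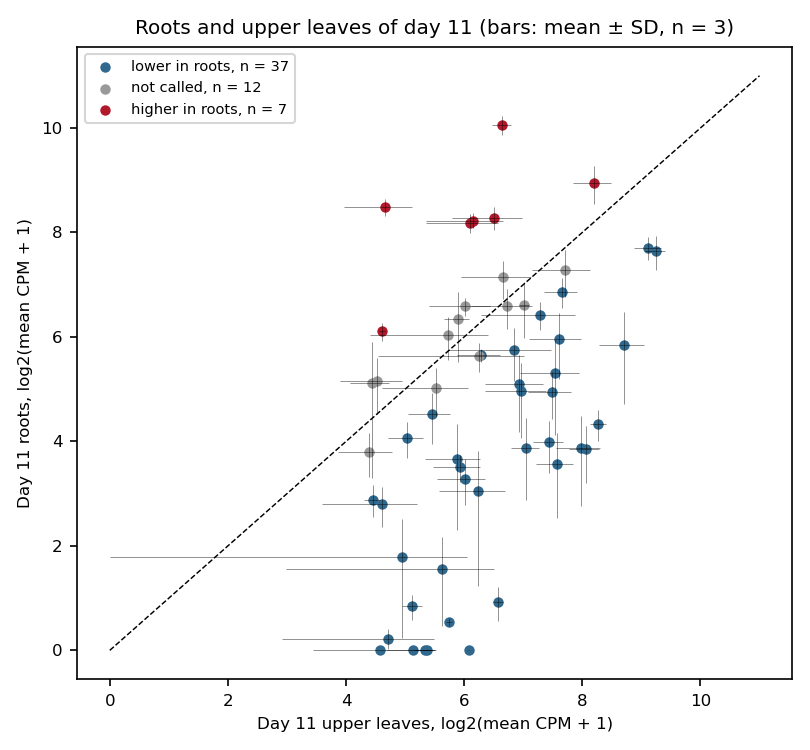
Mean level in day 11 leaves (x axis) against mean level in day 11 roots (y axis) for the 56 members, both as log2(mean CPM + 1) with bars for the mean ± SD (n = 3), coloured by the edgeR call (adjusted p under 0.05). The 7 members called higher in roots lie above the dashed line of equal level, the 37 called lower lie under it, and 5 have 0 root counts.

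Of the 7 members higher in roots, 5 were on group 3 chromosomes. TraesCS3D02G467600 had 981, 986 and 1213 CPM in roots of plants 1, 2 and 3 and 86.1, 107 and 104 in day 11 leaves, a log2 difference of 3.31 ± 0.18 (SE; adjusted p = 3.61e-06). TraesCS3A02G368800 had 319.6, 352 and 403 CPM in roots and 30.7, 28.8 and 13.1 in day 11 leaves, a log2 difference of 3.78 ± 0.32 (SE; adjusted p = 2.95e-05). In both genes every root library lay above every day 11 leaf library. TraesCS3B02G414800 had 351, 322 and 258 CPM in roots and 89.7, 125 and 54.4 in leaves, a log2 difference of 1.67 ± 0.29 (SE; adjusted p = 0.00126). TraesCS3A02G382100 had 314, 317 and 264 CPM in roots and 73.2, 98.8 and 38.5 in leaves, a log2 difference of 1.97 ± 0.31 (SE; adjusted p = 7.57e-04). TraesCS3D02G375900 had 319, 297 and 249 CPM in roots and 76.9, 88.3 and 36.2 in leaves, a log2 difference of 1.99 ± 0.31 (SE; adjusted p = 6.89e-04). These 3 genes had like root levels, and plant 3 was the lowest of the 3 plants in roots and in day 11 leaves for each of them. They lie on 3B, 3A and 3D, and whether they are copies of 1 gene was not tested, so they may not count as separate cases. TraesCS2B02G437300 had 68.3, 75.5 and 59.8 CPM in roots and 23.9, 24.1 and 22.6 in leaves, a log2 difference of 1.41 ± 0.11 (SE; adjusted p = 1.62e-05). TraesCS5D02G504200 had 421, 428 and 638 CPM in roots and 246, 268 and 368 in leaves, a log2 difference of 0.64 ± 0.23 (SE; adjusted p = 0.0408). The call of TraesCS5D02G504200 ended without plant 1 (adjusted p = 0.128), without plant 2 (adjusted p = 0.119) and when all 15 libraries shared one fit (adjusted p = 0.177). With plant as a block, TraesCS2A02G161200 and TraesCS2B02G095900 were also called higher (adjusted p = 0.00428 and 0.0391, edgeR).

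The 5 members with 0 counts in all root libraries had clear leaf levels. TraesCS6D02G018500 had 66.2, 65.9 and 67.0 CPM in day 11 leaves, the most even of the members, and was at least 1535-fold lower in roots, taking 3 counts in the root group as the floor (0.0433 CPM). TraesCS4A02G325200, with 39.5, 45.5 and 35.7 CPM in leaves, was at least 930.3-fold lower, and TraesCS3A02G173000, with 38.7, 35.0 and 44.5, at least 911-fold. TraesCS5A02G397600 had 28.0, 29.0 and 45.2 CPM in leaves and TraesCSU02G048500 36.5, 21.5 and 10.6, at least 787-fold and 529-fold above their root floor. All 5 were called lower in roots. A further 4 members had root means under 1 CPM, namely TraesCS2B02G119100, TraesCS5A02G253800, TraesCS5B02G407800 and TraesCS5D02G413000. These 9 genes are the members whose root level was lowest. Among the genes of highest day 11 leaf level, the roots still held 222, 227 and 147 CPM of TraesCS3B02G550200, a log2 difference of -1.72 ± 0.20 (SE; adjusted p = 1.66e-04), and 227, 228 and 171 CPM of TraesCS3A02G489700, a log2 difference of -1.53 ± 0.18 (SE; adjusted p = 1.77e-04). TraesCS4B02G349500 stood at 22.7, 20.0 and 14.6 CPM in roots, a log2 difference of -4.13 ± 0.20 (SE; adjusted p = 1.81e-06). In each of these 3 genes every root library lay under every day 11 leaf library.

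Some calls in the root comparison ended under other settings. TraesCS3D02G495700 had 134, 122 and 89.8 CPM in roots and 208, 237 and 159 in leaves, a log2 difference of -0.92 ± 0.20 (SE; adjusted p = 0.00405), and without plant 2 the difference was -0.79 (adjusted p = 0.0552). TraesCS6A02G344000 had 42.7, 42.1 and 73.8 CPM in roots and 181, 106 and 56.7 in leaves, and TraesCS5D02G218400 had 92.9, 67.2 and 94.9 and 229, 165 and 72.8. Both were called lower (edgeR adjusted p = 0.0294 and 0.046), and both calls ended with plant as a block (adjusted p = 0.092 and 0.0963). Without plant 1 the log2 difference of TraesCS6A02G344000 was -0.61 (adjusted p = 0.232, against -1.22 with all plants), and its adjusted p was 0.158 without plant 2. The call of TraesCS5D02G218400 also ended without plant 1 (log2 difference -0.68, adjusted p = 0.211, against -0.98 with all plants), without plant 2 (adjusted p = 0.262), with column sums (adjusted p = 0.0695) and with all 15 libraries in the fit (adjusted p = 0.102). Both genes were higher in roots than in leaves in plant 3, and lower in the other plants. The block added TraesCS7A02G141800 and TraesCS7B02G227900 as lower (adjusted p = 0.0331 and 0.0177, edgeR), so the totals with the block were 9 higher and 37 lower. Among members that passed in neither direction, TraesCS1A02G280700 had 147, 169.9 and 102 CPM in roots and 123, 122 and 54.4 in leaves, and the groups overlapped. TraesCS3D02G375800, the immediate neighbour of TraesCS3D02G375900, had 105, 115 and 66.9 CPM in roots and 95.6, 144 and 73.1 in leaves, again with overlap.

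The order of the plants was uneven among the members. On day 11 plant 3 was the lowest in 40 of the 56 members, against 36.0% of genes tested, and plant 2 was the highest in 30, against 28.4%. TMM factors over all 15 libraries set aside genes of extreme change, a scaling chosen here after the data were seen. With these factors plant 3 was also the lowest in 40. The factors of the day 11 leaf libraries were 1.20, 1.15 and 1.17 in plants 1, 2 and 3, so they could hardly change the order. Plant 3 minus plant 1 had opposite signs on day 7 and in roots in 43 members and the same sign in 8, while the other 5 had no root counts; over all genes 51.7% had opposite signs. With TMM the opposite sign held in 41, where the factors of plants 1 and 3 again differed little (0.982 and 0.940 on day 7, 1.32 and 1.31 in roots). Of the 9 such comparisons of plants and groups this one had the most members of opposite sign. On day 7 and in roots, plant 3 minus plant 2 had the same sign in 26 members and opposite signs in 25, and plant 2 minus plant 1 the same sign in 34 and opposite signs in 17. Of the 23 members highest in plant 1 on day 7, 17 were highest in plant 3 in roots, and of the 19 highest in plant 2 on day 7, 10 were highest in plant 2 in roots. TraesCS5D02G399000 was highest in plant 1 on day 7 and in plant 3 in roots, with 44.0, 3.93 and 4.61 CPM on day 7 and 24.4, 19.5 and 46.5 in roots, and TraesCS3B02G262700 was highest in plant 3 on day 7 and lowest in plant 3 in roots, with 34.2, 89.4 and 108 and 16.3, 19.9 and 4.81. Across the 56 members the difference of plant 3 and plant 1 in log2(CPM + 1) on day 7 had a Pearson r of -0.50 with that in roots, against -0.06 over 58712 genes; for plant 3 minus plant 2 it was -0.09, and for plant 2 minus plant 1 it was 0.39. Each of these values compares single libraries, and all members share them.

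**Figure D4:**
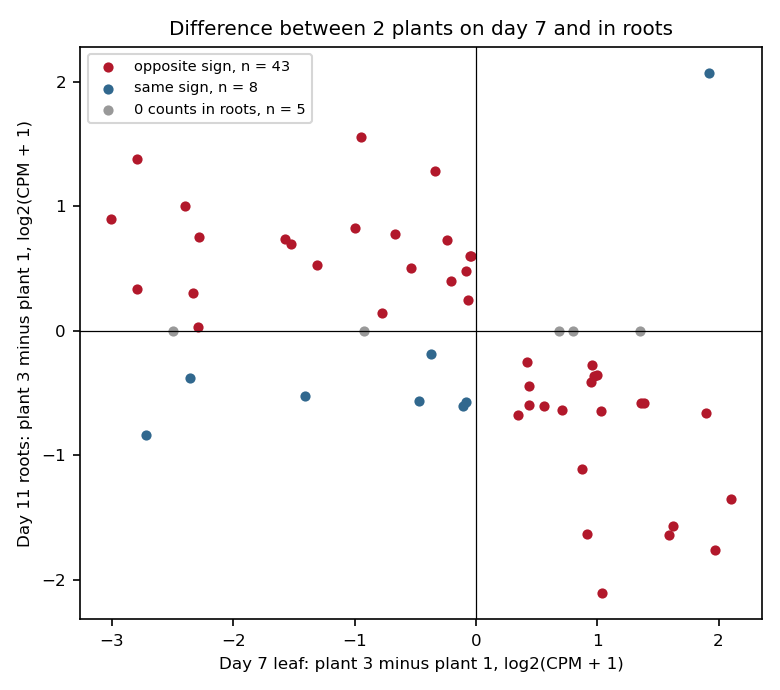
Log2 difference of plant 3 and plant 1 in the day 7 leaf (x axis) against the same difference in roots (y axis), both on log2(CPM + 1), 1 point per member. The points run from upper left to lower right, with 43 members of opposite sign and 8 of the same sign.

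The chromosomes of the members are given as counts, beside the other sets and with no test. Homoeologous group 3 held 18 members (32.1%), against 15.4% of high-confidence genes tested, 16% of the sustained genes and 14.5% of the late genes. Group 1 held 11 (19.6%, against 12.9% of genes), group 5 held 10, group 2 held 6, group 7 held 4, and groups 4 and 6 held 3 each; 1 member had no assigned chromosome. The subgenomes A, B and D held 18, 16 and 21 members. Without plant 1, 2 or 3 in the choice, the share of group 3 was 25%, 21.7% and 30.4%, and it was 26.5% of the 34 members left under TMM. Under each of these choices the share was smaller than 32.1% and above 15.4%.

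**Figure D5:**
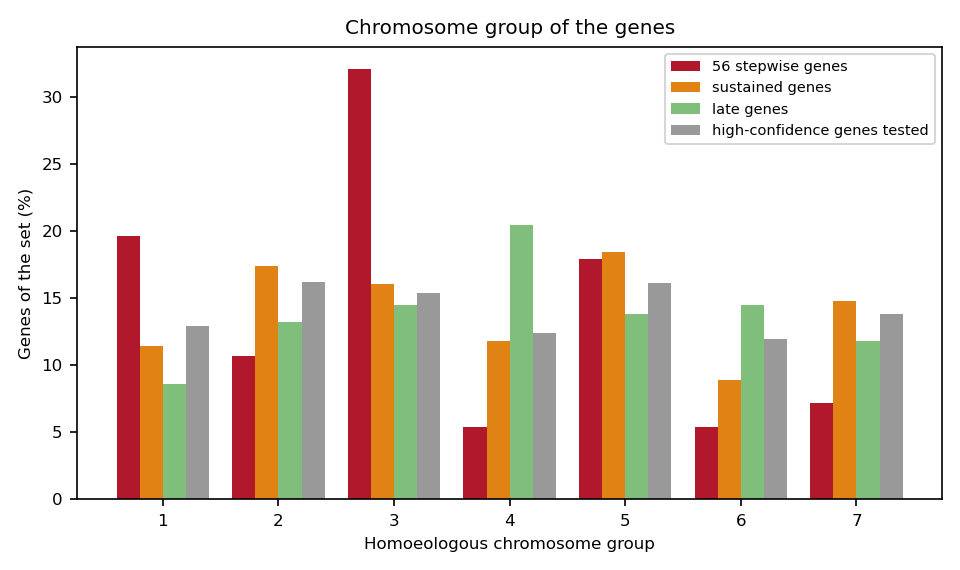
Percent of genes on each homoeologous chromosome group (x axis) for the 56 members, the sustained genes, the late genes and all high-confidence genes tested, as bars from 0. The members' bar for group 3 stands at 32.1%, and the other sets stand between 14.5 and 16% there.

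Part of the group 3 share comes from members that sit side by side. Taking identifiers on 1 chromosome whose numbers differ by at most 500 as neighbours, 5 pairs of members were found, all on group 3 and holding 10 members (17.9%). Among the sustained genes 18.9% had a neighbour in their own set, and among the late genes 11.8%. Counted once per pair, group 3 held 13 of 51 loci (25.5%). Copies of 1 gene on subgenomes A, B and D would still count separately here. Whether members are such copies was not tested. With the sustained and late genes included as possible neighbours, 14 members (25%) had one, against 6.95% of high-confidence genes tested. This share is not given for the sustained or the late genes, so it is not read as particular to the members. Neighbours may be near-identical copies whose reads the counting could split or share, so their separate values are uncertain.

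On 3A, TraesCS3A02G489500 and TraesCS3A02G489700 flank TraesCS3A02G489600, a late gene with 0, 0.0492 and 0.228 CPM on day 7 and 63.6, 152 and 24.7 on day 11. All 3 had 0 counts in the first leaf. TraesCS3A02G489600 missed only the day 7 minimum, but over 0 first-leaf counts any day 7 level met the fold limits. On 3B, TraesCS3B02G549800 and TraesCS3B02G550200 were 2 of the 3 members of highest day 11 level, and both had root levels, 68.1, 80.2 and 21.1 and 222, 227 and 147 CPM, that were lowest in plant 3. On 3D, TraesCS3D02G067100 and TraesCS3D02G067400 enclose TraesCS3D02G067200 and TraesCS3D02G067300, both late genes, with 65.8, 89.3 and 50.2 CPM and 27.4, 37.5 and 18.3 CPM on day 11. TraesCS3D02G067400 itself had 1.71, 2.51 and 4.57 CPM on day 7 and 53.7, 77.3 and 41.7 on day 11. In the stretch from TraesCS3D02G067100 to TraesCS3D02G067400 every gene had 0 counts in the first leaf and was highest in plant 2 and lowest in plant 3 on day 11. Also on 3D, the member TraesCS3D02G495700 lies beside TraesCS3D02G495400 and TraesCS3D02G495600, late genes with 242, 293 and 166 CPM and 107, 122 and 71.5 CPM on day 11; TraesCS3D02G495600 had 0 counts on day 7. In these stretches of 3A and 3D the late genes missed only the day 7 minimum, while no late gene lies beside the pair on 3B. These late genes had 0 first-leaf counts, so any day 7 level, 0 included, met the fold limits over the first leaf. Their day 7 means were 0.0925 CPM for TraesCS3A02G489600, 0.0457 for TraesCS3D02G067300 and 0 for TraesCS3D02G495600. The day 7 means were 1.10 CPM for TraesCS3D02G067200 and 1.67 for TraesCS3D02G495400. No first step is therefore read from the late genes.

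The other pairs differed within themselves. TraesCS3A02G382100 and TraesCS3A02G382200 had day 11 leaf levels of 73.2, 98.8 and 38.5 and of 119, 161 and 81.4 CPM. In roots the first had 314, 317 and 264 CPM and was called higher than in leaves, and the second had 36.0, 48.3 and 16.1 CPM and was called lower, with a log2 difference of -1.97 ± 0.40 (SE; adjusted p = 0.00292) by edgeR. TraesCS3D02G375800 and TraesCS3D02G375900 had 95.6, 144 and 73.1 and 76.9, 88.3 and 36.2 CPM in day 11 leaves, and of these the second was called higher in roots. The difference between neighbours was not tested. Of 56 high-confidence genes around the 5 pairs that are not members, 32 were under 1 CPM on day 11. Among these neighbours, 19 had no count in any library, and 8 reached 20 CPM on day 11. Over the series, 10224 of 107836 high-confidence genes reached 20 CPM in day 11 leaves. Of the 107836, 51457 passed the filter on low counts in leaves. The counts around the pairs are therefore not read as a trait of these stretches.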

How the data were processed

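RNA was extracted from about 50 mg of tissue per library, and libraries were made with a stranded Illumina mRNA workflow and sequenced as 150-base read pairs, per the labels' protocols. The authors deposited raw featureCounts counts per gene over high- and low-confidence models, per the labels; the submitters' processing notes name featureCounts 2.0.3, HISAT2 2.2.1 and Trim Galore 0.6.7 among their tools. None of the sources used here gives the genome build, the strand setting or how reads that map to several copies were treated. CPM used the column sum. Day 1 against day 0 was fitted on 12 leaf libraries and roots against day 11 leaves on 6, with edgeR 4.0.16 (TMM, filterByExpr, quasi-likelihood, Benjamini-Hochberg, threshold 0.05) in R 4.3.3, after a check on simulated counts; DESeq2 1.42.0, other filters, other scalings, left-out plants and a plant block were alternatives. All 56 members passed the filter on low counts, through the leaf libraries that chose them. Named genes were the extremes of day 11 level, of each step, of root level and root difference, those nearest each limit, and those in neighbouring pairs; others named beside them were chosen after their values were seen. The members, lists and rules were chosen with earlier results of these data known. Lists by gene description and motif searches could not be applied, as no identifier matched. The series' design text names 3 plants by the libraries' numbers, so same-numbered libraries were taken as 1 plant for the block, although the text does not say how 1 plant was sampled repeatedly; their deviations from group means correlated from -0.22 to 0.30 over 30 pairs of libraries, 5 of them above 0.1. No 2 libraries agreed within sampling noise (lowest chi-square per degree of freedom 4.32). Floors and intervals cover counting error only. The SE beside an edgeR difference was derived as the absolute log2 difference over the square root of the test's F value.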

Additional observations from a re-analysis of the deposited data

Results flagged for a closer look

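Outside the high-confidence genes, 6 low-confidence models met every step of the rule, a signal in models that the choice of members leaves out. The one of highest day 11 level, TraesCS3A02G043000LC, had 3.88, 1.60 and 2.14 CPM on day 0, 44.2, 11.0 and 14.1 on day 7 and 94.7, 107 and 139 on day 11 in plants 1, 2 and 3, and 1.71, 1.76 and 0.822 in roots. TraesCS2B02G785910LC had 20.2, 16.3 and 31.3 CPM on day 7, 71.3, 71.2 and 105 on day 11 and 0.603, 0.460 and 0.470 in roots. The day 11 means of the other 4 ran from 21.1 to 48.9 CPM. All 6 were called lower in roots than in day 11 leaves by edgeR, with log2 differences from -7.45 to -1.71.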

How the results depend on the processing

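The number of genes the rule takes depends on the scaling. TMM scaling and DESeq2 size factors each left 34, all among the 56, and a last step of at least 2 times took 108. TMM lowers day 7 against the first leaves by 0.26 and day 11 against day 7 by 0.27 on the log2 scale, and all 56 still stood higher at both steps under it; the 3-fold second step was the limit missed most often, by 15 of them. Leaving out a plant from the choice gave 48 to 60 genes, of which 35 to 44 were members. On day 1, DESeq2 called 3 members higher and 4 lower (2087 and 2489 of all genes), where edgeR called 0 under its other settings, with lowest adjusted p-values from 0.0847 to 0.183; over all genes edgeR called 0 higher without plant 1 or without plant 2, against 477 with all plants. In roots, TMM over all 15 libraries gave the members a median of 23.3 CPM, against 30.8; without a plant it was 26.5 to 31.4. Without a plant, 6 to 8 members were called higher in roots and 33 to 42 lower. The plant block gave 9 and 37 and changed no calls among named genes other than those printed with the block; on day 1 it called 0 members. DESeq2 gave 7 and 38 in roots, and column sums alone 7 and 36. The causes of these differences were not tested. Depth limits the first step, since 13 members had 3 or fewer counts in the first-leaf group compared.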
